A study of Homo sapiens with 9 samples.

Results

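The phase I and phase II drug-metabolizing enzymes measured here are 59 genes of 6 families, out of 11746 features with an Entrez gene number. They were chosen by name alone: every gene whose symbol begins as a cytochrome P450 (CYP), aldehyde dehydrogenase (ALDH), carboxylesterase (CES), UDP-glucuronosyltransferase (UGT), sulfotransferase (SULT) or glutathione S-transferase (GST, with the microsomal MGST). The 2 matching sterol and bile acid hydroxylases CYP7A1 and CYP27A1 were left out by the rule. There were 18 CYP, 17 ALDH, 3 CES, 4 UGT, 4 SULT and 13 GST or MGST members, and 4 of the 59 were not protein coding (CYP17A1-AS1, ALDH7A1P1, CES1P1 and GSTO3P). The naming rule itself uses no measured value.

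The cells were HepG2, a human line derived from a liver cancer and used as a stand-in for hepatocytes. All were transduced with the lentiCRISPRv2 vector, which carries Cas9 and a guide RNA, and selected with puromycin. The control group, sgCtrl, received a guide (sgAAVS168) against AAVS1, a locus commonly used as a neutral target. The other groups received a guide against KEAP1, and are called sgKeap1-1 and sgKeap1-2 after their guides. RNA was taken 48 h after seeding, with 3 libraries in each of the 3 groups. The methods do not describe single-cell cloning, and nothing in the sources says that the 3 libraries of a group came from separate cultures, so p-values measure only the spread between these libraries. The same 3 sgCtrl libraries served as control for both guides.

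Phase I enzymes add or unmask a reactive group on a lipophilic molecule, by oxidation in the case of the CYPs and ALDHs and by hydrolysis in the case of the CESs. Phase II enzymes then couple a polar group to it, which is glucuronic acid for the UGTs, sulfate for the SULTs and glutathione for the GSTs. KEAP1 is the adaptor that delivers the transcription factor NRF2 (gene NFE2L2) to a ubiquitin ligase, and NRF2 binds antioxidant response elements in the DNA near glutathione and detoxification genes. Other enzymes of these families answer to the aryl hydrocarbon receptor or to nuclear receptors of the hepatocyte.

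The libraries were made with QuantSeq, which places each read near the polyadenylated end of a transcript, so that levels in CPM (counts scaled to a common library size) do not scale with transcript length. They held between 3011644 and 4725840 counts on features with an Entrez number. Within the groups, sgKeap1-1 replicate 2 and sgKeap1-2 replicate 3 stood apart, with a chi-square per degree of freedom of 16.2 and 17.9 against the other sgKeap1-1 libraries, which differed from each other by 4.71, and of 15.0 and 24.1 in sgKeap1-2, where the others differed by 6.62. In sgCtrl, replicate 2 gave 9.77 and 9.96 against the other controls, which differed by 4.63. KEAP1 itself stood at 63.3, 89.2 and 85.3 CPM in the sgCtrl libraries, 64.1, 62.5 and 53.4 with sgKeap1-1 and 81.9, 85.6 and 73.9 with sgKeap1-2. Relative to sgCtrl the log2 fold change came to -0.40 under sgKeap1-1 (standard error, SE, 0.15, adjusted p = 0.211) and 0.02 under sgKeap1-2 (SE 0.15, adjusted p = 0.952), and reads at the transcript end do not report cuts elsewhere in the gene. NQO1, a quinone reductase and a textbook NRF2 target, measured 536, 521 and 505 CPM in sgCtrl, 1442, 1360.3 and 1265 with sgKeap1-1 and 1900, 1769 and 1545 with sgKeap1-2. It rose by 1.38 on the log2 scale with sgKeap1-1 (SE 0.12, adjusted p = 8.25e-06) and by 1.74 with sgKeap1-2 (SE 0.12, adjusted p = 8.47e-07). All 15 hepatocyte markers on a list of secreted liver proteins were in the table. Of these, 8 fell and 1 rose with sgKeap1-1, where 1.40% of all tested features fell and 2.80% rose, while 9 fell and 1 rose with sgKeap1-2, where the shares were 4.85% and 5.96%. With the replicate block, 9 fell and 2 rose with sgKeap1-1, beside 8.83% of all tested features called in either direction. The summed level of the 15 markers went from 52950 ± 6372 CPM (SD, n = 3) in sgCtrl to 36504 ± 5202 with sgKeap1-1 and 31393 ± 2334 with sgKeap1-2, with no overlap between sgCtrl and either guide. Of 19 markers of other cell types, 8 were in the table and 7 were tested. Without the block the bile duct keratin KRT19 was the only marker called among them (log2 fold change 1.28 and 1.48 with the respective guides). With the replicate block CD14 was also called, lower with sgKeap1-1 (-1.33, adjusted p = 0.0325). The summed level of the 8 markers of other cell types ran from 1612 to 2379 CPM in sgCtrl, from 2016 to 3326 with sgKeap1-1 and from 1800 to 2396 with sgKeap1-2. The part of these marker changes in the enzyme values below was not tested. In such bulk samples, fewer cells of a kind and less RNA per cell cannot be told apart.

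Promoter sequence was looked at because many genes of these families are known for NRF2 or aryl hydrocarbon receptor sites near their starts. RefSeq promoter windows on GRCh38.p14, from 250 bases before to 50 bases after an annotated start, could be matched for 43 of the 59 members, with 59 starts among them. Windows were searched on both strands for TGACNNNGC, the core letters of the antioxidant response element, and for GCGTG, those of the aryl hydrocarbon receptor element. Matches of the motifs can overlap by their shared GC and were counted separately. The first motif stood in 4 of the 19 starts (21.1%) of the members that changed with at least 1 guide, in 3 of the 40 starts (7.5%) of the other members, and in 4687 of all 35116 windows of that length (13.3%). The aryl hydrocarbon receptor letters stood in 10.5%, 32.5% and 36.5% of the same sets. The windows of the changed members that hold the first motif are shown here, with the match in capitals and each sequence written 5′ to 3′ along its gene. Whether a match bears on the change of its gene was not tested. They lie at chr19:15934818-15935117 on the minus strand for CYP4F11, and on the plus strand at chr10:104254642-104254941 for GSTO1, chr12:16346865-16347164 for MGST1 and chr2:108288645-108288944 for SULT1C2.
CYP4F11: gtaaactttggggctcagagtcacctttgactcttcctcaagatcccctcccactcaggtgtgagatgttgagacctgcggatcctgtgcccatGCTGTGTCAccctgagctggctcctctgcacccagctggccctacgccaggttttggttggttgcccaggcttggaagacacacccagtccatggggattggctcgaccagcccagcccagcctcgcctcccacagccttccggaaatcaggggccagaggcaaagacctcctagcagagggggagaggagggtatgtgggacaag
GSTO1: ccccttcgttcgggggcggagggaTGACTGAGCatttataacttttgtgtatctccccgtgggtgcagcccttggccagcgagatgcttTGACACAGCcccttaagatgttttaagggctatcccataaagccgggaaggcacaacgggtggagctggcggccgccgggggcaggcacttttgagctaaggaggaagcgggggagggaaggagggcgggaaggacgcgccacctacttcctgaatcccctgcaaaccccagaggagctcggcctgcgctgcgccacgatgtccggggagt
MGST1: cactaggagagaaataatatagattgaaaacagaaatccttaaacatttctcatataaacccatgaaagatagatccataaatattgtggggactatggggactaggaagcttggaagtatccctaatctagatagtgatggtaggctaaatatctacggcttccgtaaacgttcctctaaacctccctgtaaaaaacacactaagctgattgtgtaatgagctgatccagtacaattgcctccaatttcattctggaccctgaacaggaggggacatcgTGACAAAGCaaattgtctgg
SULT1C2: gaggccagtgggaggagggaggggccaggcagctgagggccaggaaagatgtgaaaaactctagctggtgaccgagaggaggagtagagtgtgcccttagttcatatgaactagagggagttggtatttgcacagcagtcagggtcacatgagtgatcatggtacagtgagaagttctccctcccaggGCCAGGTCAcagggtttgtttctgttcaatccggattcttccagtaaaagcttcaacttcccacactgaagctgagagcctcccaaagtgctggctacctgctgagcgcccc

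Of these genes, CYP4F11, MGST1 and GSTO1 rose with at least 1 guide and SULT1C2 fell, as described below. The window of GSTO1 holds 2 matches. The match of MGST1 lies 30 to 38 bases after the start, and the other 2 windows of MGST1 hold none. The second annotated start of CYP4F11 also holds none. The windows of GSTA1, GSTA2, UGT1A1, CYP2S1, CYP4F3, ALDH1A1, ALDH1L1 and UGT2B7, which also rose with at least 1 guide, do not contain these letters. CYP24A1, ALDH3A1, CES1P1, SULT1A1 and SULT1A2, which rose, and CYP4F12, which fell, had no matched window and were not searched. Among members that did not pass the test, CYP4V2, GSTA4 and UGT2B11 have a match.

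With sgKeap1-1, 13 of the 54 members that had enough counts to be tested changed against sgCtrl, 12 of them upward, where 4.20% of all 11064 tested features changed, 2.80% upward and 1.40% downward. With sgKeap1-2, 21 changed, 16 upward and 5 downward, against 10.8% of all tested features, 5.96% upward and 4.85% downward. The upward counts include CYP2S1, ALDH3A1 and UGT1A1 with both guides and CES1P1 with sgKeap1-2, which had enough counts only in the knockout libraries, and the downward count with sgKeap1-2 includes CYP2U1, which needed the sgCtrl libraries to be tested. With at least 10 counts asked of every library, 40 members were tested, of which 10 were called with sgKeap1-1 and 13 with sgKeap1-2. Without sgKeap1-2 replicate 2 the 21 became 13, of 56 tested. Without sgKeap1-1 replicate 2, 12 members were called with sgKeap1-1, and without sgKeap1-2 replicate 3, 21 were called with sgKeap1-2, of which 20 were shared with the full set. The shares of all features called under these settings are not given here. A drop in the members is therefore not told apart from one across all features. A change here is a Benjamini-Hochberg adjusted p under 0.05 in edgeR's quasi-likelihood test. In the conjugating families, 7 of the 20 tested members rose with sgKeap1-1 and 13 did not pass, while 8 rose and 1 fell with sgKeap1-2. In the phase I families, 5 rose and 1 fell of 34 tested with sgKeap1-1, and 8 rose and 4 fell with sgKeap1-2. The median log2 fold change of the tested members was 0.05 with sgKeap1-1 and 0.05 with sgKeap1-2, beside -0.00 and -0.01 over all tested features. A minority of members passed. With at least 1 guide these were 21, beside 10.9% of all tested features, and the other 33 did not pass with either. The libraries of a group carry replicate numbers, and for sgKeap1-1 and sgCtrl the libraries of equal number deviated together. With the replicate number as a block, 15 members changed with sgKeap1-1, beside 8.83% of all tested features.

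**Figure D1:**
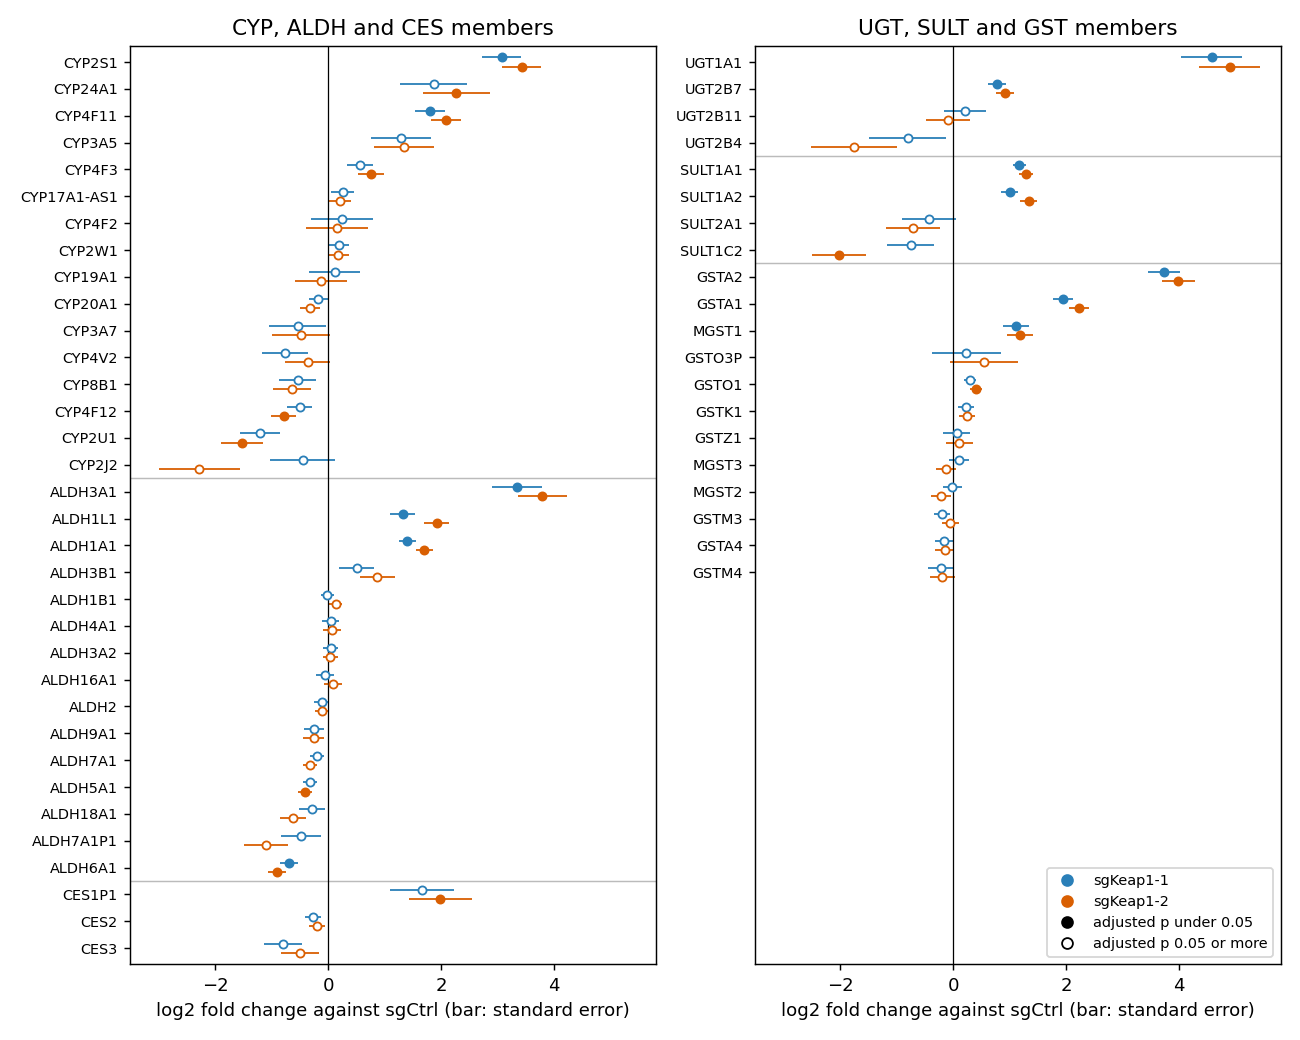
Log2 fold change against sgCtrl (horizontal axis, bars are standard errors) of the 54 tested members, by family, for sgKeap1-1 and sgKeap1-2. Filled points passed an adjusted p of 0.05. The values run from 4.90 for UGT1A1 to -2.28 for CYP2J2, both with sgKeap1-2.

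Among the cytochromes P450, which use electrons from NADPH to insert oxygen into their substrates, 2 of 16 tested members rose with sgKeap1-1 and 14 did not pass. With sgKeap1-2, 4 rose and 2 fell, beside 4.20% and 10.8% of all tested features called with the respective guides. The 16 include CYP17A1-AS1, a noncoding RNA gene that encodes no P450 and did not pass with either guide. CYP2S1, an extrahepatic P450 known to respond to the aryl hydrocarbon receptor, stood at 1.06, 1.36 and 1.67 CPM in the sgCtrl libraries, 11.0, 15.5 and 8.41 with sgKeap1-1 and 14.2, 14.4 and 16.2 with sgKeap1-2. Every knockout library lay above every control, and CYP2S1 passed the filter on low counts only through the knockout libraries. It rose 8.41-fold with sgKeap1-1 (log2 fold change 3.07, SE 0.35, adjusted p = 1.13e-04) and 10.8-fold with sgKeap1-2 (3.43, SE 0.35, adjusted p = 1.71e-05). CYP24A1, the mitochondrial enzyme that inactivates vitamin D, measured 4.24, 15.3 and 4.18 CPM in sgCtrl, 20.7, 40.5 and 22.4 with sgKeap1-1 and 43.4, 50.7 and 16.96 with sgKeap1-2. The sgCtrl replicate 2 was the highest control and sgKeap1-2 replicate 3 the lowest knockout library, and the groups still did not overlap. CYP24A1 rose with sgKeap1-2 (2.27, SE 0.59, adjusted p = 0.0403). With sgKeap1-1 its log2 fold change of 1.87 (SE 0.59) did not pass (adjusted p = 0.147), and it passed with the replicate block (adjusted p = 0.000864, range over 18 alternatives 0.000864 to 0.392). Without sgCtrl replicate 2, its log2 fold changes moved to 2.72 and 3.12. CYP2U1, a P450 that oxidizes long-chain fatty acids, was present at 6.89, 6.81 and 5.30 CPM in sgCtrl, 2.92, 2.61 and 2.63 with sgKeap1-1 and 2.46, 1.46 and 2.67 with sgKeap1-2. CYP2U1 passed the filter on low counts only with the sgCtrl libraries, where it is high, and was not tested with at least 10 counts asked of every library. It fell by 1.52 on the log2 scale with sgKeap1-2 (SE 0.37, adjusted p = 0.0163), and its value of -1.21 with sgKeap1-1 (SE 0.36) did not pass (adjusted p = 0.0782). Leaving out libraries ended the sgKeap1-2 call of CYP24A1 without sgCtrl replicate 1 or 3, sgKeap1-1 replicate 1 or 3 or sgKeap1-2 replicate 1 or 2 (adjusted p 0.0522 to 0.132), and that of CYP2U1 without sgCtrl replicate 1 or sgKeap1-2 replicate 2 (0.0691 to 0.0810).

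The 4 CYP4F genes, fatty acid and leukotriene omega-hydroxylases that neighbour each other on chromosome 19, did not move as a block. CYP4F11 stood at 5.30, 5.44 and 5.30 CPM in sgCtrl, 22.7, 20.04 and 13.4 with sgKeap1-1 and 28.0, 21.5 and 19.4 with sgKeap1-2. It rose 3.49-fold (log2 fold change 1.80, SE 0.27, adjusted p = 8.93e-04) and 4.26-fold (2.09, SE 0.27, adjusted p = 1.18e-04). CYP4F3, which inactivates leukotriene B4, measured 33.4, 39.8 and 30.1 CPM in sgCtrl, 53.3, 62.3 and 35.8 with sgKeap1-1 and 56.3, 75.4 and 43.6 with sgKeap1-2. Only the sgKeap1-1 group overlapped the controls. CYP4F3 rose with sgKeap1-2 (0.77, SE 0.23, adjusted p = 0.0496), and with sgKeap1-1 gave 0.56 (SE 0.23, adjusted p = 0.266), which passed with the replicate block (adjusted p = 0.0254, range over 18 alternatives 0.0254 to 0.599). CYP4F12 went the other way, from 36.0, 26.2 and 30.1 CPM in sgCtrl to 20.5, 16.6 and 28.7 with sgKeap1-1 and 18.5, 15.6 and 19.6 with sgKeap1-2. It fell by 0.79 on the log2 scale with sgKeap1-2 (SE 0.22, adjusted p = 0.0362) and gave -0.50 with sgKeap1-1 (SE 0.22, adjusted p = 0.295). CYP4F2, a vitamin K and vitamin E hydroxylase, lay between 1.06 and 6.33 CPM in all libraries and did not pass with either guide. The sgKeap1-2 call of CYP4F3 was lost when any of the sgCtrl libraries, sgKeap1-1 replicate 1 or sgKeap1-2 replicate 1 or 2 was left out (adjusted p 0.0604 to 0.190). That of CYP4F12 was lost without sgCtrl replicate 1 or 3, sgKeap1-1 replicate 1 or sgKeap1-2 replicate 1 or 2 (0.0529 to 0.164).

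CYP2W1, a P450 found in fetal gut and tumours, had the highest mean level of the family over all 9 libraries. With sgKeap1-2 the mean of CYP4F3 was higher (58.4 against 56.2 CPM). CYP2W1 measured 59.1, 34.03 and 54.7 CPM in sgCtrl, 63.1, 59.0 and 46.8 with sgKeap1-1 and 56.0, 54.6 and 57.9 with sgKeap1-2. It did not pass (0.19, SE 0.19, adjusted p = 0.752, and 0.18, SE 0.19, adjusted p = 0.633), and its sign turned to -0.0135 and -0.0190 without sgCtrl replicate 2. CYP2J2, an arachidonic acid epoxygenase, had 41 counts over the sgCtrl libraries, 37 with sgKeap1-1 and 9 with sgKeap1-2. Its ratio to sgCtrl was 0.744 with sgKeap1-1 (95% exact interval for counting error 0.464 to 1.19) and 0.197 with sgKeap1-2 (0.0842 to 0.411). Neither passed edgeR's test across libraries without a replicate block (adjusted p = 0.813 and 0.0578). The sgKeap1-2 value passed by limma-voom and by DESeq2. CYP2J2, like CYP2U1, passed the filter on low counts only with the sgCtrl libraries. It was not tested with at least 10 counts asked of every library. CYP3A5, which shares many drug substrates with the other CYP3A enzymes, was read at 1.59, 3.40 and 2.51 CPM in sgCtrl, 6.82, 6.97 and 4.21 with sgKeap1-1 and 4.62, 11.5 and 2.67 with sgKeap1-2. The control group lay below sgKeap1-1 and overlapped sgKeap1-2, and neither log2 fold change passed (1.29, SE 0.53, adjusted p = 0.254, and 1.35, SE 0.53, adjusted p = 0.133). CYP3A7, the fetal CYP3A enzyme, gave -0.54 and -0.47 (adjusted p = 0.728 and 0.647). CYP8B1, which directs bile acid synthesis to cholic acid, gave -0.54 and -0.64 (adjusted p = 0.506 and 0.283), and CYP19A1, the aromatase, 0.12 and -0.13 (adjusted p = 0.954 and 0.913).

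Of the aldehyde dehydrogenases, which oxidize aldehydes to acids with NAD or NADP, 3 of 15 tested members rose and 1 fell with sgKeap1-1, and 3 rose and 2 fell with sgKeap1-2, beside 4.20% and 10.8% of all tested features called. ALDH3A1, which clears aromatic and medium-chain aldehydes, was read at 1.59, 0.681 and 2.23 CPM in sgCtrl, 16.3, 15.5 and 16.3 with sgKeap1-1 and 33.2, 20.97 and 11.9 with sgKeap1-2. The sgKeap1-1 libraries were close together, while those of sgKeap1-2 spread on either side of them. ALDH3A1 rose by 3.35 on the log2 scale with sgKeap1-1 (SE 0.44, adjusted p = 3.66e-04) and by 3.79 with sgKeap1-2 (SE 0.44, adjusted p = 5.32e-05), from 16 counts in all controls to 200 and 243, and it too passed the filter on low counts only through the knockout libraries. ALDH1A1, a retinaldehyde dehydrogenase, was far more abundant, with 137, 154 and 148 CPM in sgCtrl, 377, 400.4 and 383 with sgKeap1-1 and 534, 541 and 358 with sgKeap1-2. It rose 2.64-fold (1.40, SE 0.15, adjusted p = 6.13e-05) and 3.26-fold (1.71, SE 0.15, adjusted p = 4.59e-06). ALDH1L1, the cytosolic 10-formyltetrahydrofolate dehydrogenase of folate metabolism, stood at 18.8, 18.4 and 17.6 CPM in sgCtrl, 45.8, 55.3 and 35.5 with sgKeap1-1 and 50.8, 85.4 and 71.0 with sgKeap1-2. It rose 2.50-fold (1.32, SE 0.22, adjusted p = 0.00206) and 3.79-fold (1.92, SE 0.22, adjusted p = 4.10e-05). The calls of ALDH1A1 and ALDH1L1 held with both guides in each alternative run, while ALDH3A1 was not tested with at least 10 counts asked of every library.

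Both ALDH6A1 and ALDH5A1 fell with at least 1 guide. ALDH6A1, the methylmalonate semialdehyde dehydrogenase of valine catabolism, measured 118, 136 and 122 CPM in sgCtrl, 63.1, 96.1 and 73.4 with sgKeap1-1 and 58.8, 76.8 and 64.9 with sgKeap1-2, with every knockout library below every control. It fell by 0.69 on the log2 scale (SE 0.16, adjusted p = 0.0247) and by 0.90 (SE 0.16, adjusted p = 0.00229). When any of the sgCtrl libraries or sgKeap1-1 replicate 1 or 3 was left out, the sgKeap1-1 value no longer passed (adjusted p 0.0685 to 0.139). ALDH5A1, the succinate semialdehyde dehydrogenase of GABA breakdown, had 158, 138 and 161 CPM in sgCtrl, 136, 115 and 116 with sgKeap1-1 and 119, 108 and 117 with sgKeap1-2. It fell by 0.41 with sgKeap1-2 (SE 0.13, adjusted p = 0.0499) and gave -0.32 with sgKeap1-1 (SE 0.13, adjusted p = 0.228). The call of ALDH5A1 was lost when any of the 9 libraries was left out (adjusted p 0.0520 to 0.174), and it passed in 2 of 18 alternatives. ALDH7A1, which acts in lysine catabolism, was at 201, 202 and 195 CPM in sgCtrl, 176, 153 and 192 with sgKeap1-1 and 175, 158 and 148 with sgKeap1-2. Every knockout library lay below every control, and its log2 fold changes of -0.20 (SE 0.12, adjusted p = 0.517) and -0.32 (SE 0.12, adjusted p = 0.133) did not pass. ALDH3B1 was at 9.54, 5.78 and 10.04 CPM in sgCtrl, 16.3, 7.19 and 13.1 with sgKeap1-1 and 15.1, 14.4 and 17.4 with sgKeap1-2. In the fit without a replicate block its log2 fold changes of 0.51 (SE 0.31, adjusted p = 0.507) and 0.87 (SE 0.31, adjusted p = 0.0911) did not pass. The pseudogene ALDH7A1P1 gave -0.47 (SE 0.36, adjusted p = 0.619) and -1.10 (SE 0.38, adjusted p = 0.0867), and ALDH9A1 gave -0.25 and -0.25 (adjusted p = 0.603 and 0.453). Of other members that did not pass with either guide, ALDH2, which oxidizes acetaldehyde, gave -0.11 and -0.11 (adjusted p = 0.783 and 0.682), ALDH1B1 gave -0.02 and 0.14, ALDH3A2 gave 0.05 and 0.04, and ALDH4A1 of proline catabolism 0.05 and 0.07. ALDH18A1, which works in the opposite direction in proline synthesis, was at 121, 96.6 and 93.7 CPM in sgCtrl, 78.7, 99.1 and 77.0 with sgKeap1-1 and 77.3, 85.6 and 40.5 with sgKeap1-2. Its log2 fold changes of -0.29 (SE 0.23, adjusted p = 0.656) and -0.62 (SE 0.23, adjusted p = 0.124) did not pass in the fit without a replicate block.

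The measured carboxylesterase level was nearly all CES2, an esterase of the liver and gut that cleaves drugs such as irinotecan. CES2 measured 247, 202 and 195 CPM in sgCtrl, 187, 164 and 186 with sgKeap1-1 and 188, 161 and 212 with sgKeap1-2. The log2 fold changes of -0.26 (SE 0.14, adjusted p = 0.424) and -0.20 (SE 0.14, adjusted p = 0.440) did not pass, and CES3 did not either (-0.80, SE 0.34, adjusted p = 0.279, and -0.50, SE 0.34, adjusted p = 0.417). The feature labelled CES1P1, a pseudogene, had 11 counts over the sgCtrl libraries, 43 with sgKeap1-1 and 49 with sgKeap1-2, and passed the filter on low counts only through the knockout libraries. It rose with sgKeap1-2 (1.99, SE 0.56, adjusted p = 0.0338) and gave 1.66 with sgKeap1-1 (SE 0.57, adjusted p = 0.141). The sgKeap1-2 call was lost when any of the sgCtrl libraries or sgKeap1-2 replicate 1 or 2 was left out (adjusted p 0.0538 to 0.120). All windows of 75 bases in the last 500 bases of its transcript also occur in CES1 or CES1P2. Reads of CES1P1 therefore cannot be told apart from those of CES1. CES1 matches the naming rule but had no feature with an Entrez number, so the CES pool does not include it.

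The UDP-glucuronosyltransferases attach glucuronic acid to bilirubin, steroids and drugs. UGT1A1, the enzyme that conjugates bilirubin, was close to the floor of detection in sgCtrl, with counts of 0, 1 and 2 or 0, 0.340 and 0.558 CPM. It reached 8.53, 5.88 and 8.94 CPM with sgKeap1-1 and 8.93, 9.02 and 10.9 with sgKeap1-2. Summed counts were 3 in sgCtrl, 96 with sgKeap1-1 and 111 with sgKeap1-2. The ratio to sgCtrl was 26.4 with sgKeap1-1 (95% exact interval 8.76 to 130.1) and 33.2 with sgKeap1-2 (11.1 to 163), where the intervals cover counting error only. It rose in the test with both guides (adjusted p = 1.35e-04 and 2.98e-05), and its fitted log2 fold changes of 4.58 (SE 0.54) and 4.90 (SE 0.53) depend on the prior count. They moved to 3.98 and 4.30 without sgCtrl replicate 1 and to 5.42 and 5.73 without sgCtrl replicate 3. Like CYP2S1, ALDH3A1 and CES1P1, UGT1A1 passed the filter on low counts only through the knockout libraries, and with at least 10 counts asked of every library these 4 were not tested. The UGT1A genes on chromosome 2 share their last exons. Every window at the end of UGT1A1 also occurs in 8 other UGT1A genes, so the value may stand for any of them. None of those was a member, and how reads over shared exons were counted is not given. Such reads may be missing, so the UGT1A1 level and its share of the UGT pool are uncertain. UGT2B7, which glucuronidates morphine and steroids, made up most of the measured UGT level, at 43.7, 35.4 and 37.9 CPM in sgCtrl, 63.3, 74.7 and 63.9 with sgKeap1-1 and 84.0, 76.3 and 61.1 with sgKeap1-2. It rose 1.72-fold (0.78, SE 0.16, adjusted p = 0.00924) and 1.88-fold (0.91, SE 0.16, adjusted p = 0.00163). Without sgCtrl replicate 3 the sgKeap1-1 value gave an adjusted p of 0.0547. UGT2B4, its neighbour on chromosome 4 and a bile acid conjugating enzyme, went from 42 counts in sgCtrl to 30 with sgKeap1-1 and 14 with sgKeap1-2 and did not pass (-0.81, SE 0.68, adjusted p = 0.680, and -1.75, SE 0.77, adjusted p = 0.182). UGT2B11 gave 0.21 and -0.09 (adjusted p = 0.878 and 0.926).

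In the sulfotransferases, which transfer sulfate from PAPS, the phenol enzymes SULT1A1 and SULT1A2 rose with both guides. SULT1A1, the main phenol sulfotransferase of adult liver, measured 264, 307 and 277 CPM in sgCtrl, 675, 616 and 624 with sgKeap1-1 and 741, 715 and 623 with sgKeap1-2. It rose 2.26-fold (1.17, SE 0.12, adjusted p = 3.29e-05) and 2.45-fold (1.29, SE 0.12, adjusted p = 5.87e-06). SULT1A2, its neighbour on chromosome 16, stood at 71.3, 72.1 and 73.9 CPM in sgCtrl, 154, 137 and 146 with sgKeap1-1 and 166, 153 and 229 with sgKeap1-2. It rose 2.01-fold (1.01, SE 0.15, adjusted p = 0.00108) and 2.53-fold (1.34, SE 0.15, adjusted p = 4.79e-05). Of the windows at the transcript end, 73.7% for SULT1A2 and 22.8% for SULT1A1 also occur in another gene, SULT1A1 itself among those of SULT1A2, so the rise of SULT1A2 may hold reads of its relatives. SULT2A1, which sulfates bile acids and DHEA, was at 151, 291 and 166 CPM in sgCtrl, 118, 235 and 96.5 with sgKeap1-1 and 122, 184 and 65.7 with sgKeap1-2. In each group replicate 2 was the highest, and at each replicate number the sgCtrl library was the highest of 3. The groups overlapped, and the log2 fold changes of -0.43 (SE 0.47, adjusted p = 0.783) and -0.71 (SE 0.48, adjusted p = 0.440) did not pass in the fit without a replicate block. SULT1C2 was low, at 5.30, 3.06 and 9.76 CPM in sgCtrl, 3.65, 3.05 and 4.21 with sgKeap1-1 and 1.85, 1.22 and 1.45 with sgKeap1-2. It fell by 2.02 on the log2 scale with sgKeap1-2 (SE 0.48, adjusted p = 0.0138) and gave -0.75 with sgKeap1-1 (SE 0.42, adjusted p = 0.450). The sgKeap1-2 call of SULT1C2 was lost without sgCtrl replicate 3 (-1.49, adjusted p = 0.0981) or sgKeap1-2 replicate 2 (-1.87, adjusted p = 0.0541), within a range of 0.00406 to 0.0981 over 17 alternatives.

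Of the glutathione S-transferases, 3 of 12 tested members rose with sgKeap1-1 and 4 with sgKeap1-2, beside 2.80% and 5.96% of all tested features that rose, and the others did not pass. The alpha class, which is abundant in hepatocytes and acts on steroid and lipid peroxidation substrates, split. GSTA2 stood at 5.56, 6.12 and 7.25 CPM in sgCtrl, 86.7, 60.3 and 107 with sgKeap1-1 and 105, 71.7 and 126 with sgKeap1-2. It rose 13.3-fold (3.73, SE 0.29, adjusted p = 7.09e-06) and 15.9-fold (3.99, SE 0.29, adjusted p = 1.69e-06). GSTA1, beside it on chromosome 6, measured 42.1, 47.0 and 43.2 CPM in sgCtrl, 175, 129 and 204 with sgKeap1-1 and 203, 175 and 244 with sgKeap1-2. It rose 3.84-fold (1.94, SE 0.18, adjusted p = 1.63e-05) and 4.71-fold (2.23, SE 0.18, adjusted p = 2.36e-06). In both knockout groups replicate 2 was the lowest library for GSTA1 and for GSTA2, and of the windows at their ends only 3.29% occur in both genes. GSTA4, the third alpha member and the enzyme most active on 4-hydroxynonenal, lay between 32.6 and 42.9 CPM in all libraries and gave -0.15 and -0.15 (SE 0.17 and 0.17, adjusted p = 0.769 and 0.672).

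MGST1, a membrane-bound transferase and peroxidase of the endoplasmic reticulum and mitochondria, measured 188, 259 and 192 CPM in sgCtrl, 482, 466 and 434 with sgKeap1-1 and 612, 541 and 294 with sgKeap1-2. The sgKeap1-2 replicate 3 was the lowest knockout library, and the groups did not overlap. MGST1 rose 2.16-fold (1.11, SE 0.23, adjusted p = 0.0175) and 2.27-fold (1.18, SE 0.23, adjusted p = 0.00660). The sgKeap1-1 call was lost without sgCtrl replicate 1 or 3 or sgKeap1-1 replicate 1 or 2 (adjusted p 0.0585 to 0.0946). GSTO1, the omega-class enzyme that reduces dehydroascorbate and methylated arsenic, was at 312, 320 and 315 CPM in sgCtrl, 379, 416 and 368 with sgKeap1-1 and 392, 415 and 451 with sgKeap1-2. These controls lay close together, and every knockout library was higher. The increase was small and passed with sgKeap1-2 (1.33-fold, 0.41, SE 0.11, adjusted p = 0.0268) but not with sgKeap1-1 (0.30, SE 0.11, adjusted p = 0.191). It no longer passed when any of the sgCtrl libraries or sgKeap1-2 replicate 2 was left out (adjusted p 0.0602 to 0.102). MGST2, which can make leukotriene C4, had the highest mean level of the family over all 9 libraries. The mean of MGST1 was higher with sgKeap1-1 (460 against 446 CPM) and with sgKeap1-2 (482 against 387), where that of GSTO1 (419) was higher too. MGST2 measured 402, 529 and 417 CPM in sgCtrl, 423, 527 and 386 with sgKeap1-1 and 406, 459 and 295 with sgKeap1-2. It did not pass (-0.01, SE 0.17, adjusted p = 0.989, and -0.22, SE 0.17, adjusted p = 0.509), and its sgKeap1-1 value changed sign without sgCtrl replicate 2 (0.12), sgKeap1-1 replicate 1 (0.02) or sgKeap1-1 replicate 3 (0.08). MGST3 gave 0.10 and -0.13, GSTK1 of the mitochondria and peroxisomes 0.23 and 0.24, and GSTZ1, the maleylacetoacetate isomerase of tyrosine breakdown, 0.06 and 0.11. The mu-class members GSTM3 and GSTM4 gave -0.19 and -0.05 and -0.22 and -0.19, none of which passed.

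**Figure D2:**
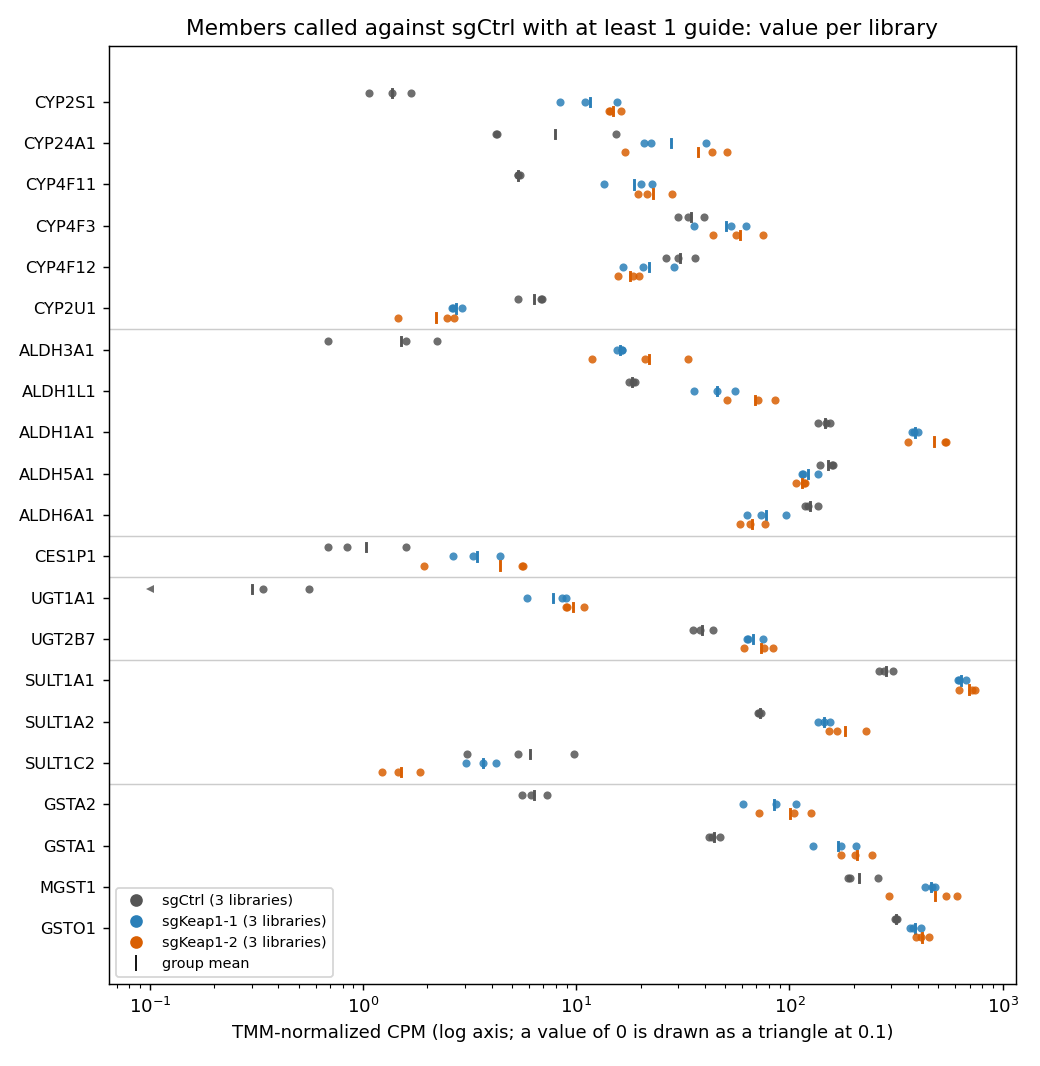
CPM per library (horizontal log axis) of the 21 members that passed the test with at least 1 guide, by family, with short bars at the group means. GSTA2 lies between 5.56 and 7.25 CPM in sgCtrl and between 60.3 and 126 in the knockout libraries, and the sgCtrl library of UGT1A1 without counts is a triangle at the left edge.

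Added up over each family, 5 of the 6 families stood higher in every knockout library than in every sgCtrl library. The whole set of 59 went from 3912 ± 223 CPM (SD, n = 3) in sgCtrl to 5009 ± 213 with sgKeap1-1 and 5247 ± 390 with sgKeap1-2. The UGTs went from 47.3 ± 2.69 to 81.8 ± 6.62 and 88.1 ± 9.37, and the SULTs from 564 ± 96.4 to 937 ± 61.4 and 1001 ± 71.7. The GSTs went from 1319 ± 114 to 1839 ± 65.1 and 1882 ± 167. The phase I sums moved less, with the CYPs at 229 ± 16.9, 282 ± 34.3 and 296 ± 32.5 and the ALDHs at 1530 ± 23.1, 1682 ± 63.1 and 1782 ± 136. The CESs lay at 223 ± 29.2 in sgCtrl, 187 ± 12.9 with sgKeap1-1 and 197 ± 23.4 with sgKeap1-2, below the controls with sgKeap1-1 and overlapping them with sgKeap1-2. These sums are a description, and the most abundant members weigh most in them.

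**Figure D3:**
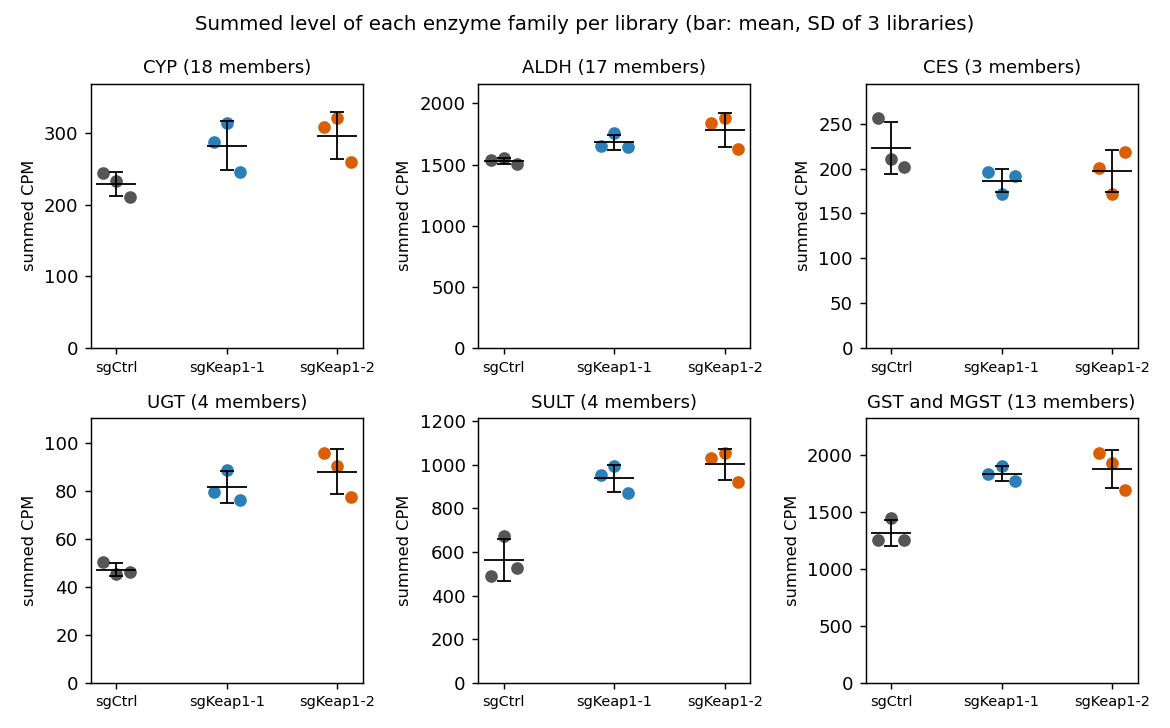
Summed CPM of each family (vertical axes start at 0) in each of the 9 libraries, with the mean and SD of 3 libraries. The UGT sum lies between 45.3 and 50.3 in sgCtrl and between 76.3 and 96.0 in the knockout libraries, while the CES groups overlap for sgKeap1-2.

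The shares that members held of their pools differed between groups in the CYP, GST, SULT, ALDH and UGT pools, while CES2 held 96.2% ± 0.461 (SD, n = 3) of the CES pool in sgCtrl, 95.9% ± 0.984 with sgKeap1-1 and 94.9% ± 2.19 with sgKeap1-2. In the CYP pool CYP24A1 held 3.43% ± 2.71 (SD, n = 3) in sgCtrl, 9.74% ± 2.91 with sgKeap1-1 and 12.1% ± 4.93 with sgKeap1-2. CYP4F11 held 2.34% ± 0.170, 6.58% ± 1.22 and 7.75% ± 1.21, and CYP2S1 0.604% ± 0.181, 4.06% ± 0.781 and 5.11% ± 0.996. CYP4F12 went from 13.4% ± 1.94 to 8.02% ± 3.29 and 6.14% ± 1.36. The noncoding CYP17A1-AS1 held 11.5% ± 1.07, 11.4% ± 1.95 and 10.6% ± 3.65 of the CYP pool. In the GST pool MGST2 held 33.96% ± 2.27 (SD, n = 3) in sgCtrl, 24.2% ± 3.12 with sgKeap1-1 and 20.4% ± 3.20 with sgKeap1-2, while GSTA1 held 3.35% ± 0.106, 9.27% ± 2.37 and 11.2% ± 2.82. MGST1 went from 16.1% ± 1.57 to 25.0% ± 1.03 and 25.2% ± 6.94. SULT1A1 made up 50.7% ± 4.40 of the SULT pool in sgCtrl, 68.3% ± 5.28 with sgKeap1-1 and 69.2% ± 2.37 with sgKeap1-2, and SULT2A1 35.1% ± 7.01, 15.8% ± 6.93 and 12.1% ± 5.18. In the ALDH pool ALDH1A1 took 9.56% ± 0.563 in sgCtrl, 22.99% ± 0.278 with sgKeap1-1 and 26.6% ± 3.97 with sgKeap1-2, and it was the most abundant ALDH in each knockout library. UGT2B7 held a like share of the UGT pool, at 82.3% ± 4.34, 82.3% ± 2.63 and 83.5% ± 4.57. UGT1A1 went from 0.652% ± 0.609 to 9.67% ± 2.71 and 11.1% ± 2.55, and UGT2B4 from 9.13% ± 4.65 to 2.77% ± 2.50 and 1.36% ± 0.646.

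**Figure D4:**
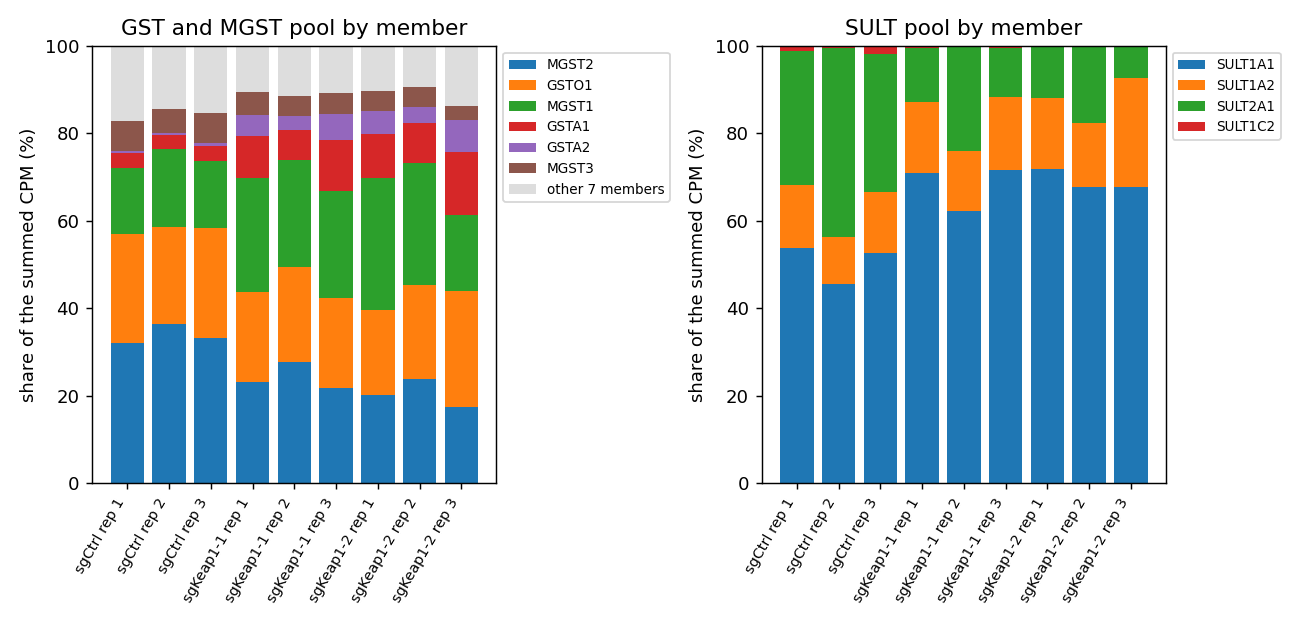
Share of the summed CPM of the GST and MGST pool and of the SULT pool by member (vertical axis, percent) in each of the 9 libraries. In the GST and MGST pool, members other than MGST2, GSTO1, MGST1, GSTA1, GSTA2 and MGST3 are drawn together. The MGST2 share lies lower and the shares of GSTA1 and GSTA2 higher in the knockout libraries, and SULT1A1 exceeds its sgCtrl shares in each knockout library.

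The guides were also compared with each other, since a shared control cannot show whether they differ. No member passed between sgKeap1-2 and sgKeap1-1 in edgeR's test, where 0.0181% of all tested features passed. By DESeq2 and by limma-voom no member passed either, with 19 and 0 of all features called. Of the 54 members, 4 had an unadjusted p under 0.05, and the smallest adjusted p was 0.887. Over the 21 members that changed with at least 1 guide, the log2 difference of sgKeap1-2 from sgKeap1-1 ran from -1.26 to 0.60, with SEs from 0.110 to 0.508. A difference between guides of that size was therefore not resolved for single enzymes with 3 libraries a group.

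The enzymes depend on partners that supply electrons and cofactors, and 23 of 25 listed genes of this kind were tested. With sgKeap1-1, 4 rose and 19 did not pass, and with sgKeap1-2, 4 rose and 2 fell, beside 4.20% and 10.8% of all tested features called. The genes that rose serve glutathione and UDP-glucuronic acid. GCLM and GCLC, the subunits of the rate-limiting enzyme of glutathione synthesis, rose by 1.77 (SE 0.18, adjusted p = 4.87e-05) and 1.19 (SE 0.20, adjusted p = 0.00270) on the log2 scale with sgKeap1-1 and by 2.18 (SE 0.19, adjusted p = 3.44e-06) and 1.38 (SE 0.20, adjusted p = 4.72e-04) with sgKeap1-2. GSR, which reduces oxidized glutathione, rose by 0.86 (SE 0.15, adjusted p = 0.00272) and 1.13 (SE 0.15, adjusted p = 1.44e-04). UGDH, which makes UDP-glucuronic acid for the UGTs, measured 490, 553 and 465 CPM in sgCtrl, 675, 720.5 and 634 with sgKeap1-1 and 823, 838 and 798 with sgKeap1-2, and rose by 0.43 (SE 0.11, adjusted p = 0.0469) and 0.71 (SE 0.11, adjusted p = 8.51e-04). POR, the reductase that feeds electrons to microsomal P450s, was at 235, 274 and 226 CPM in sgCtrl, 190, 191 and 179 with sgKeap1-1 and 153, 178 and 169 with sgKeap1-2. It fell by 0.56 with sgKeap1-2 (SE 0.12, adjusted p = 0.00797) and gave -0.39 with sgKeap1-1 (SE 0.12, adjusted p = 0.0945, and 0.0251 with the replicate block). CYB5A, the cytochrome b5 that also serves P450s, fell by 0.52 with sgKeap1-2 (SE 0.14, adjusted p = 0.0252) and gave -0.47 with sgKeap1-1 (SE 0.14, adjusted p = 0.0741, and 0.00913 with the replicate block). With the replicate block, 4 rose and 3 fell in this list with sgKeap1-1, beside 8.83% of all features. The PAPS makers and carriers on the list did not pass in the test without the block, PAPSS1 giving -0.15 and -0.25 (adjusted p = 0.825 and 0.508).

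Among 44 other phase I and II enzymes outside the 6 families, 30 were in the table and 26 were tested. Of these, 3 rose and 4 fell with sgKeap1-1, and 5 rose and 5 fell with sgKeap1-2, beside 4.20% and 10.8% of all tested features called. With the replicate block, 5 rose and 5 fell with sgKeap1-1, beside 8.83%. EPHX1, the microsomal epoxide hydrolase, measured 34.7, 28.6 and 23.4 CPM in sgCtrl, 107, 104 and 101 with sgKeap1-1 and 132, 142 and 123 with sgKeap1-2, and rose by 1.84 (SE 0.15, adjusted p = 7.09e-06) and 2.19 (SE 0.15, adjusted p = 8.56e-07). The genes that fell most couple medium-chain and aromatic acids to coenzyme A, the step before glycine conjugation. ACSM2B fell by 2.00 on the log2 scale (SE 0.24, adjusted p = 1.43e-04) and by 2.24 (SE 0.25, adjusted p = 3.19e-05), and ACSM2A by 1.85 (SE 0.48, adjusted p = 0.0460) and by 2.64 (SE 0.53, adjusted p = 0.00483). These falls, like those of ALDH6A1 and ALDH5A1, stand beside the lower hepatocyte markers given above, whose part was not tested.

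On a list of 34 receptors and transcription factors known to act on these families, 30 were tested, of which 2 fell with sgKeap1-1 and 4 with sgKeap1-2 while the others did not pass, beside 4.20% and 10.8% of all tested features called. Without sgCtrl replicate 1 or 3, 1 was called with each guide, and without any of the sgKeap1-1 libraries in turn 1 with sgKeap1-1, while without sgKeap1-2 replicate 1 there were 2 with sgKeap1-2. The shares of all features called in those fits are not given here. ONECUT1, a hepatocyte factor, fell by 1.42 (SE 0.23, adjusted p = 0.00158) and by 1.89 (SE 0.24, adjusted p = 1.03e-04), and RXRA, the partner of many nuclear receptors, by 0.57 (SE 0.13, adjusted p = 0.0197) and by 0.48 (SE 0.13, adjusted p = 0.0286). HNF4A, a central hepatocyte factor, and NFE2L2, which encodes NRF2, fell with sgKeap1-2 by 0.56 (SE 0.13, adjusted p = 0.0126) and 0.49 (SE 0.14, adjusted p = 0.0347), and gave -0.43 and -0.40 with sgKeap1-1 (adjusted p = 0.0945 and 0.146), which passed with the replicate block (0.0121 and 0.0437). AHR, the aryl hydrocarbon receptor, gave 0.76 and 0.70 (SE 0.38 and 0.38, adjusted p = 0.385 and 0.299), and NR1I2, the pregnane X receptor, 0.82 and 0.83 (SE 0.36 and 0.36, adjusted p = 0.298 and 0.182). With the replicate block, 1 of this list rose and 4 fell with sgKeap1-1, beside 8.83% of all features.

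**Figure D5:**
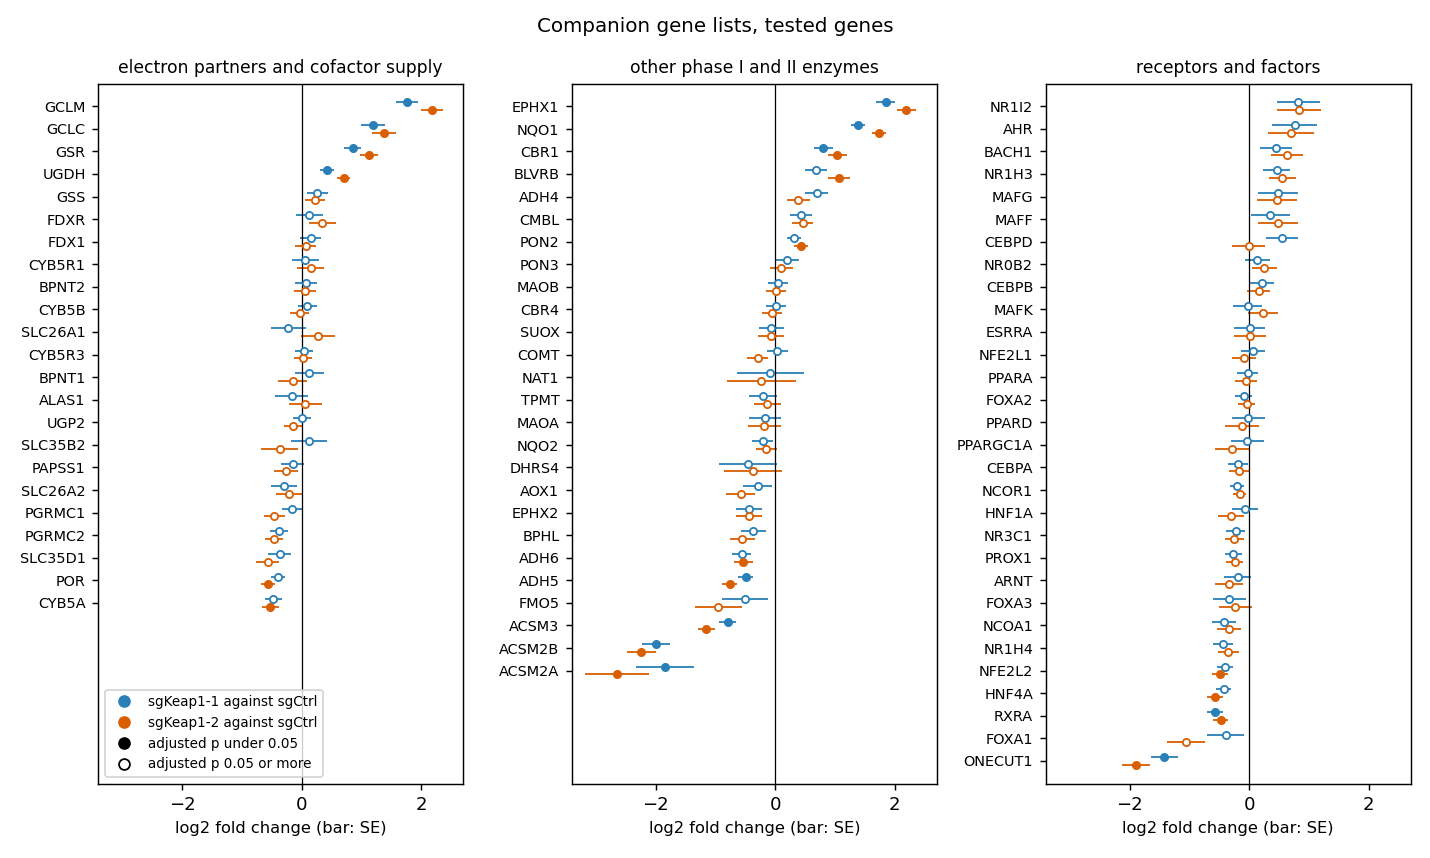
Log2 fold change against sgCtrl (horizontal axis, bars are standard errors) of the tested genes of the 3 companion lists for sgKeap1-1 and sgKeap1-2, with filled points at an adjusted p under 0.05. GCLM and EPHX1 lead their lists at 2.18 and 2.19 with sgKeap1-2, and no receptor or factor is filled on the right of 0.

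The 5 members too low to be tested were ALDH1L2, ALDH8A1, CYP1A1, CYP27B1 and GSTO2. ALDH1L2, the mitochondrial relative of ALDH1L1, had 3 counts over the sgCtrl libraries, 29 with sgKeap1-1 and 21 with sgKeap1-2, ratios of 7.97 (95% exact interval 2.47 to 40.9) and 6.28 (1.88 to 32.9) for counting error only. CYP1A1, the classical aryl hydrocarbon receptor target, had 24 counts in sgCtrl, 16 with sgKeap1-1 and 14 with sgKeap1-2, and its ratios of 0.549 (0.273 to 1.08) and 0.523 (0.250 to 1.05) include no change. The intervals of CYP27B1, the vitamin D activating enzyme, GSTO2 and ALDH8A1 also include a ratio of 1. Without strand information on the counting, reads of a member and of a gene on the opposite strand over the same end cannot be told apart, which touches 55.6% of the end of ALDH6A1 (BBOF1), 19.6% of that of ALDH3A1, 10% of that of ALDH1L1 and 87.4% of that of CES2.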

How the data were processed

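Poly(A) RNA ends of 9 HepG2 libraries (3 sgCtrl, 3 sgKeap1-1, 3 sgKeap1-2, grouped and numbered by sample title) were analysed. The authors deposited whole-number read counts per gene, not normalized, from QuantSeq 3′ reads. The submitters' processing notes name FastQC 0.72, cutadapt 1.16, STAR 2.7.5b, featureCounts 1.6.3 and limma 3.40.6. The study's methods name GRCh37 and the notes hg38, and the annotation and strand setting are not given in the sources used here. Every one of the 12798 features had over 0.5 CPM in at least 3 libraries, so low features had been removed before deposit. No sample column was left unmapped (0).

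Of these, 11746 features had an Entrez number and 11740 numbers matched a symbol. The 1052 features without a number, 1.34% of the counts, stayed out of library sizes and tests. Counts were scaled by TMM, filtered with filterByExpr (11064 tested) and fitted with edgeR 4.0.16 (R 4.3.3, robust quasi-likelihood, group as the only factor, all 9 libraries). P-values were adjusted by Benjamini-Hochberg over all tested features with a threshold of 0.05, and standard errors were taken as the size of the log2 fold change over the root of the F statistic. The fit was tested on simulated data. Counts under exact 95% intervals are sums over 3 libraries, and counts of 3 or fewer are near the floor. Library totals of 3011644 to 4725840 counts (median 3758185) limit the precision of low members. No libraries of a group agreed within sampling noise (chi-square per degree of freedom 4.63 to 24.1).

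Replicate numbers recur in each group, and the sample descriptions of equal number share a prefix whose meaning is not given. The deviations from group means of equally numbered libraries correlated across genes at 0.24, 0.397 and 0.177 for sgKeap1-1 and sgCtrl, and at -0.0155, 0.356 and 0.214 for sgKeap1-2 and sgCtrl. The blocked fit is therefore given beside results for sgKeap1-1 only.

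Named are KEAP1 and NQO1, the members of a family called with at least 1 guide, the member of each family with the highest mean level over all 9 libraries, and from each companion list up to 4 called genes with the largest change. POR, CYB5A, HNF4A, NFE2L2 and the members and list genes named without a call were chosen for their roles after values were seen. The members and lists were chosen with earlier results of these data known. Alternatives were the replicate block, DESeq2 size factors, library size only, limma-voom (limma 3.58.1), DESeq2 1.42.0, 2 other low-count filters, fits of only the 2 groups compared, and each library left out in turn. Keeping features without an Entrez number was added after seeing the data. Shared transcript ends were searched on GRCh37 with GENCODE transcripts, in windows of 75 bases over the last 500, for 58 members. Promoters are from RefSeq (GRCh38.p14), searched with Python 3.11.15. The authors' siRNA and zebrafish samples are not analysed here.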

Additional observations from a re-analysis of the deposited data

Results flagged for a closer look

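Features without an Entrez number lie outside the comparisons above. When they were kept in the fit, 702 of them were tested. With sgKeap1-1, 7 were higher and 6 lower than in sgCtrl at an adjusted p under 0.05, and with sgKeap1-2, 20 were higher and 11 lower. They are given because these data are not otherwise used. Among the 11064 tested features with a number, 310 and 659 were higher with the respective guides. They carry no symbol here and none can be assigned to an enzyme family.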

How the results depend on the processing

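With all libraries in the study or in the groups compared, the 13 members called with sgKeap1-1 were kept by limma-voom, by DESeq2, under each scaling and without the filter, and the replicate block added CYP24A1 and CYP4F3. The filter of at least 10 counts in every library left 40 members to test, so that CYP2S1, UGT1A1, ALDH3A1 and CES1P1 were among those dropped, and it gave 13 calls with sgKeap1-2. ALDH5A1 and CYP4F3 were still tested under this filter and no longer passed with sgKeap1-2. Leaving out each library in turn gave 10 to 13 called members with sgKeap1-1 (UGT2B7, ALDH6A1 and MGST1 lost without sgCtrl replicate 3), 13 to 22 with sgKeap1-2 (13 without sgKeap1-2 replicate 2), and 0 between the guides. The shares of all features called under the filter of 10 counts and in these fits are not given here. Fewer called members are therefore not told apart from fewer calls across all features. The members called with sgKeap1-2 that depended most on the setting were ALDH5A1, past the threshold in 2 of 18 alternatives, CYP4F3 in 9 of 18, CES1P1 in 10 of 16 and CYP24A1 in 11 of 18. CYP4F11, ALDH1L1, ALDH1A1, SULT1A1, SULT1A2, GSTA1 and GSTA2 passed with both guides in each alternative run. Leaving out libraries moved the log2 fold change of CYP2W1 from -0.0135 to 0.34 with sgKeap1-1 and from -0.0190 to 0.33 with sgKeap1-2, with the negative values without sgCtrl replicate 2. That of MGST2 with sgKeap1-1 ran from -0.15 to 0.12, and was positive without sgCtrl replicate 2 (0.12), sgKeap1-1 replicate 1 (0.0242) or sgKeap1-1 replicate 3 (0.0819). The cause was not tested.

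With the replicate block, 15 members were called with sgKeap1-1, 25 with sgKeap1-2 (CYP2J2, ALDH18A1, ALDH3B1 and SULT2A1 added) and 0 between the guides, and all tested features called came to 977, 1956 and 26 in place of 465, 1196 and 2. For sgKeap1-2 the equally numbered libraries did not all deviate together, and what their shared label prefix marks is not given. SULT2A1 under the block gave -0.76 with sgKeap1-2 (adjusted p = 0.00158) and -0.49 with sgKeap1-1 (adjusted p = 0.0503). Between the guides, DESeq2 called 19 of all features, and limma-voom, the filter of 10 counts and the fit of only those groups 0. Of the receptors and factors, 5 were called with sgKeap1-1 and 7 with sgKeap1-2 under the block, and 2 with sgKeap1-2 in the fit of the 2 groups compared. Depth limits what can be said of UGT1A1, CES1P1, CYP2S1, ALDH3A1, ALDH1L2, CYP27B1, GSTO2 and GSTO3P, which had under 10 counts in each sgCtrl library.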
